A study of Mus musculus with 6 samples.

Results

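Genes whose symbols begin with Psma, Psmb, Psmc or Psmd and a digit were examined in mouse embryonic stem (ES) cells that carry a knockout of Dppa4 and in the parental line, which is hemizygous for Dppa4. These symbols cover the subunits of the proteasome, with a testis form and immune forms. The members were all probe sets that the platform annotation assigns to exactly 1 such symbol: 80 probe sets of 40 genes, out of 45037 probe sets and 18193 genes. For summaries a gene was represented by the probe set with the highest mean over the 6 arrays. Total RNA was hybridised on 3 Affymetrix arrays per group. Each group was a single cell line, kept in both cases on feeders of mouse embryonic fibroblasts. Separate cultures are not named for the replicates in the labels, and the p-values therefore cover the spread among these 6 arrays, which may be technical. Values are log2 expression values normalised across arrays (RMA, robust multi-array average). Changes are knockout minus parental on that scale, with the standard error (SE) of the limma fit or the standard deviation (SD) of 3 arrays.

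The proteasome degrades proteins tagged with ubiquitin. Its core particle is a stack of rings made of alpha subunits, which gate the entrance, and beta subunits, some of which cut the chain. A regulatory particle sits on the end of the core: ATPases (Psmc genes) and other base subunits unfold the substrate, and a lid (Psmd genes) removes its ubiquitin. In some tissues single subunits are exchanged: Psma8 takes the place of Psma7 in male germ cells, Psmb8, Psmb9 and Psmb10 take the places of Psmb5, Psmb6 and Psmb7 under interferon, and Psmb11 is found in the thymus cortex.

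The arrays resembled each other closely, with correlations of 0.994 to 0.997 between pairs. Dppa4 changed by -1.63 (SE 0.08, adjusted p = 0.000112, limma), lower on 3 of 3 knockout arrays. Whether its probe set falls inside the deleted stretch is unknown, so this is a weak check of the labels. All 8 measured ES cell markers lay above background (3.78, the 95th percentile of 80 olfactory and vomeronasal receptor probe sets), and so did 11 of 11 feeder fibroblast markers. Of 8 leukocyte markers 6 lay above it, with Lyz2 of myeloid cells changed by 0.34 (adjusted p = 0.668), and Ptprc and Itgam, which define leukocytes and myeloid cells, lay below it. Over the 8, 7 changes were above 0 and 0 passed (limma; 0 also without adjustment), and the summed level ran from 8.66 to 8.96 over the parental and from 8.85 to 9.12 over the knockout arrays, with overlap. The summed linear level of the fibroblast markers ran from 14.67 to 14.76 on the log2 scale over the parental arrays and from 14.83 to 14.88 over the knockout arrays, without overlap. That of the ES cell markers ran from 14.64 to 14.69 and from 14.65 to 14.68, with overlap. The mean of their log2 values, in which the brightest marker weighs less, ran from 11.13 to 11.23 and from 11.09 to 11.12, lower on every knockout array. That last margin was narrow. Of the 8 ES markers 4 were lower on every knockout array, where 9.11% of all genes were. Dppa5a, 1 of the 8, was higher on every knockout array (change 0.08), where 7.23% of all genes were. Of the 8, 0 passed (limma; 1, Nanog, at an unadjusted p under 0.05, with a change of -0.49 and an adjusted p of 0.122). In RNA from a mixed culture, fewer cells of a type and less RNA per cell cannot be told apart.

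Psma8 was the 1 member that passed the test, and it fell to about 51.5% of its parental signal. This gene encodes the alpha subunit of the testis proteasome, which is needed for meiosis in males. Its probe set (1427170_at, chromosome 18) read 7.06, 7.15 and 7.25 on the parental arrays and 6.13, 6.43 and 6.03 on the knockout arrays. Every knockout array lay below every parental array, and all 6 lay well above the background level. The mean went from 7.15 ± 0.10 to 6.20 ± 0.21 (SD, n = 3), a change of -0.96 (SE 0.11, 95% interval -1.22 to -0.70, adjusted p = 0.0130, limma over all 45037 probe sets). An exact permutation test over the arrays gave p = 0.1, the smallest that 3 arrays against 3 can give. Thus 1 of 40 member genes fell and 0 rose, where 0.511% of all genes fell and 0.0934% rose. Among the 80 probe sets the count was also 1 lower and 0 higher, against 0.333% and 0.0688% of all probe sets. Every knockout array lay above every parental array for 14 of the 80 and below for 5, against 6.71% and 7.52% of all probe sets.

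The call of Psma8 rested on the full set of arrays. Without 1 array its change ran from -1.07 to -0.873, always lower. The adjusted p was 0.0821 without knockout replicate 1, 0.0558 without knockout replicate 3, and 0.0594, 0.0618 and 0.0630 without parental replicates 1, 2 and 3. It was 0.00751 without knockout replicate 2, the array with the highest knockout value. The fibroblast markers were higher on the knockout arrays, as given above, by a median of 0.14, with 10 of 11 above 0 and 0 of 11 passing (limma; without adjustment 2 had p under 0.05, both higher). The part of the culture's composition in the Psma8 change was not tested.

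Psma7 is the somatic counterpart of Psma8 at the same position of the ring. It read 10.78, 10.85 and 10.87 on the parental arrays and 10.83, 10.90 and 10.91 on the knockout arrays, which overlap. The change was 0.05 (SE 0.07, 95% interval -0.12 to 0.21, adjusted p = 0.894, limma), and its other probe set gave 0.03. The difference between the Psma8 and Psma7 probe sets, taken within each array, shifted by -1.003 from parental to knockout (exact permutation p = 0.1). Against the median of the 31 constitutive subunits on the same array the shift was -0.95, with the same p. Psma8 has a single probe set, so its fall could not be read a second time on these arrays. Whether that probe set also binds transcripts of Psma7 is not known here, and its signal is given as measured.

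**Figure D1:**
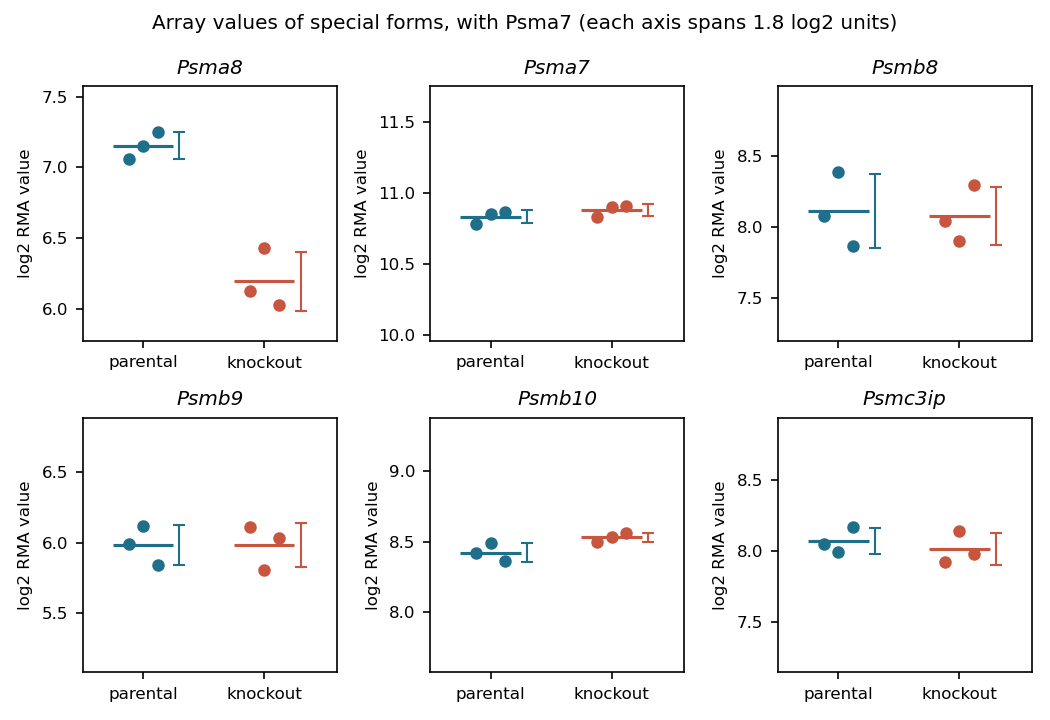
Log2 values on each array for Psma8, Psma7, Psmb8, Psmb9, Psmb10 and Psmc3ip; points are arrays (replicates 1 to 3 from left to right), horizontal lines are group means and bars to the right are ± SD (n = 3). The groups are apart for Psma8, narrowly apart for Psmb10 and overlap for the other genes.

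A list of meiotic genes, chosen with earlier results of these data known, was set beside Psma8. Of 10 measured genes, 1 fell, 0 rose and 9 did not pass (limma). The gene that fell was Syce1, which encodes a part of the synaptonemal complex and was at least 9.38-fold lower (adjusted p = 4.21e-06). Hormad1, a chromosome axis gene, changed by -1.42 (adjusted p = 0.0654), and Sycp3, another axis gene, by -0.61 (adjusted p = 0.102). On all 3 knockout arrays 5 of the 10 lay below all parental arrays, where 9.11% of all genes did; of these 5, Sycp1 and Tex11 were below background in both groups. Msh5, which stabilises crossovers, went the other way: it was higher on all 3 knockout arrays (change 0.30, unadjusted p = 0.00250, adjusted p = 0.189). Dmc1, a strand exchange gene, changed by 0.26 with overlap (adjusted p = 0.750). These genes were read on the same 6 arrays as Psma8.

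Psmc3ip matches the symbol rule but is no subunit of the proteasome; it encodes a partner of Mnd1 in meiotic recombination. It read 8.05, 7.99 and 8.17 on the parental and 7.92, 8.14 and 7.98 on the knockout arrays. The groups overlapped, and the change was -0.06 (SE 0.09, 95% interval -0.26 to 0.15, adjusted p = 0.897, limma). Its other probe set gave 0.13. Mnd1 itself changed by -0.03 (adjusted p = 0.949).

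No constitutive subunit passed the test. Of 31 measured genes for core, base and lid subunits, 0 were called (limma). Without adjustment, 1 had p under 0.05 and was higher, and 0 were lower, where 4.66% of all genes were higher and 6.37% lower at that threshold. Their changes ran from -0.19 to 0.19 with a median of 0.00, and the median over all genes was also 0.00. For 29 of the 31, the change was smaller than 10%. The 95% intervals reached from -0.49 for Psmb2 to 0.35 for Psma1, or from 71.4% to 127% of the parental signal. Each interval holds for a single gene and covers the spread among these arrays, so they are no joint bound for all 31. The half-width of these intervals ran from 0.15 to 0.29, so smaller shifts of single subunits were not resolvable with 3 arrays a group. The summed level of the 31 genes ran from 16.06 to 16.09 over the parental arrays and from 16.07 to 16.08 over the knockout arrays. RMA gives the arrays a common distribution, so a shift of nearly all transcripts would not show in these values.

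**Figure D2:**
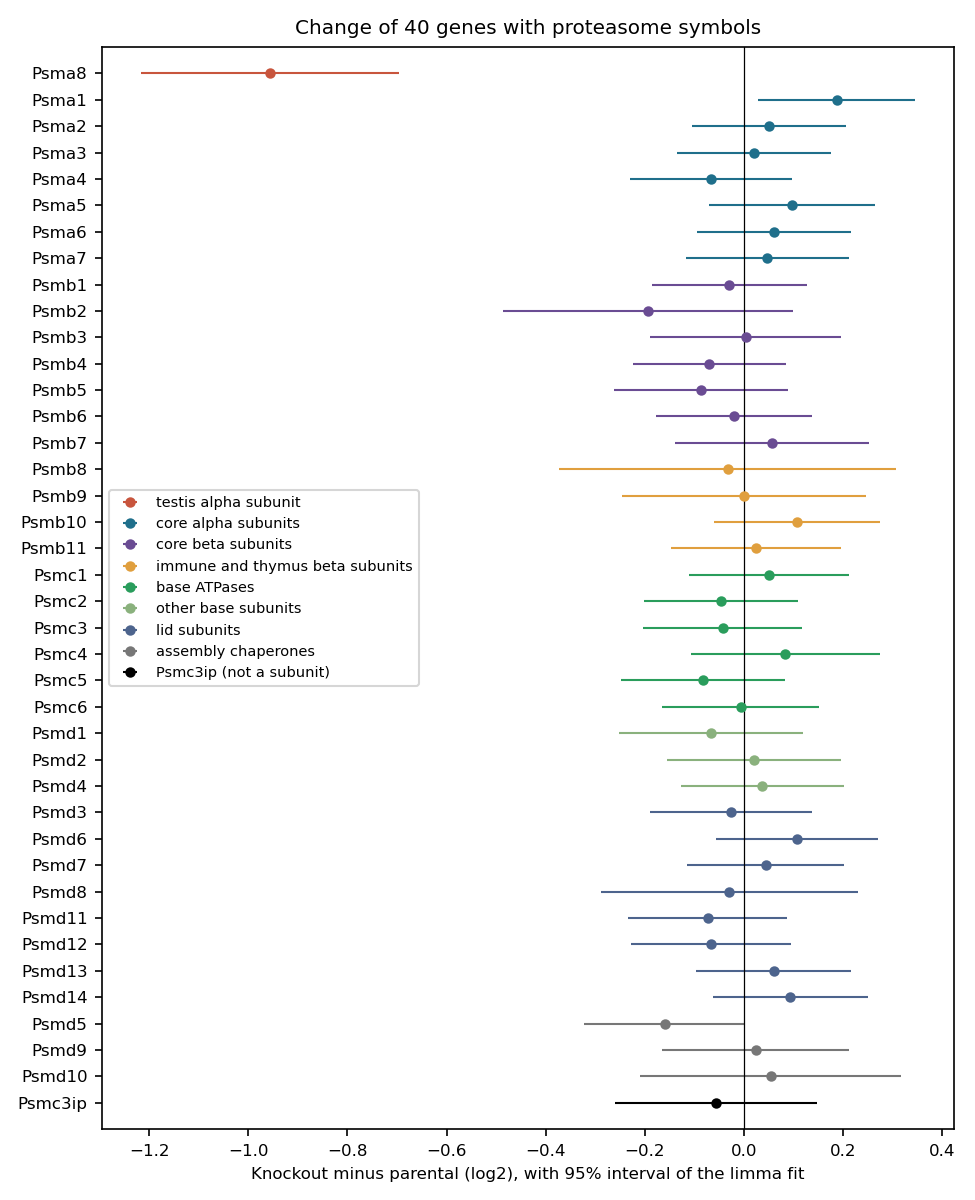
Knockout minus parental change (log2) of the 40 genes, 1 probe set each, with the 95% interval of the limma fit, coloured by role in the proteasome. Psma8 lies at -0.96, and the other 39 genes lie between -0.19 and 0.19.

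Within the core, the alpha and beta subunits lay on slightly different sides of 0. Among the 7 alpha genes 6 lay above 0 (median 0.05), and among the 7 beta genes 5 lay below 0 (median -0.03). None of the 14 passed the test (limma), and Psma1 alone had p under 0.05 without adjustment. The mean of the alpha genes ran from 11.43 to 11.47 over the parental arrays and from 11.50 to 11.52 over the knockout arrays, without overlap. That of the beta genes ran from 11.15 to 11.23 and from 11.10 to 11.18, with overlap. The difference between the rings was not tested.

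Psma1, an alpha subunit, had the lowest unadjusted p of the constitutive genes. It read 10.45, 10.43 and 10.51 on the parental and 10.66, 10.65 and 10.64 on the knockout arrays. The knockout values were all higher and lay close together, and the change was 0.19 (SE 0.07, 95% interval 0.03 to 0.35, unadjusted p = 0.0262, adjusted p = 0.445, limma). Of its other probe sets, the 1 above background gave 0.07. Below background, 1436769_at gave -0.25, lower on every knockout array (unadjusted p = 0.0124, adjusted p = 0.351, limma), and 1436770_x_at gave 0.08. Psma5 read 11.48, 11.38 and 11.47 against 11.51, 11.59 and 11.52, again without overlap, with a change of 0.10 (adjusted p = 0.753). Its next probe set gave -0.01. Psmb2, a beta subunit, had the largest fall in value, from 9.76, 9.96 and 9.58 to 9.69, 9.35 and 9.68. Here the groups overlapped and the replicates were far apart (change -0.19, adjusted p = 0.710). Psmb5, which carries the chymotrypsin-like activity, read 11.07, 11.22 and 11.14 against 11.06, 11.00 and 11.11 (change -0.09, adjusted p = 0.792), also with overlap.

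In the base and the lid 0 of 17 members passed (limma; 0 also without adjustment). Among the 6 ATPases that unfold substrates, Psmc4 read 10.68, 10.69 and 10.82 against 10.83, 10.90 and 10.71 (change 0.08, adjusted p = 0.823). Psmc5 read 11.03, 11.02 and 11.03 against 10.91, 11.02 and 10.90 (change -0.08, adjusted p = 0.789). In both the groups overlapped. Of the other base subunits, Psmd1, a scaffold, changed by -0.07 from 10.94, 10.86 and 10.97 to 10.78, 10.97 and 10.82 (adjusted p = 0.860). Psmd4, a ubiquitin receptor, changed by 0.04 from 10.87, 10.91 and 10.95 to 10.89, 10.96 and 10.99 (adjusted p = 0.921). Both pairs of groups overlapped. In the lid, Psmd6 read 11.10, 11.08 and 11.06 against 11.24, 11.19 and 11.13 (change 0.11, adjusted p = 0.713). Psmd14, the enzyme that cuts ubiquitin off the substrate, read 11.33, 11.30 and 11.37 against 11.43, 11.43 and 11.42 (change 0.09, adjusted p = 0.744). For these lid genes every knockout array lay above every parental array.

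Small differences without overlap were seen for several constitutive genes. Every knockout array lay above every parental array for 8 of the 31, with changes of 0.04 to 0.19, and below for 2, Psmc2 (-0.05) and Psmb4 (-0.07). Over all genes these shares were 7.23% and 9.11%, and over the 2434 genes at least as bright as the dimmest constitutive subunit 10.4% and 12.9%. The median SD within groups was 0.04 for the constitutive subunits and 0.08 for those 2434 genes. Several of these differences were not seen again on a gene's other probe sets. Psmc2 was lower on 1426611_at (-0.05) and higher on 1435859_x_at (0.04), with no overlap in either. Psmb4 changed by -0.07 on 1451205_at and by 0.09 on 1438984_x_at. Others were seen again. Psma6 was higher on every knockout array on 1437144_x_at (0.06) and on 1416506_at (0.05). Psmd6 gave 0.29 on its dimmer probe set 1423696_a_at, which read 9.01, 9.08 and 9.15 against 9.49, 9.28 and 9.34 (unadjusted p = 0.00843, adjusted p = 0.302), in the direction of the brighter one.

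In all, 21 member genes had 40 further probe sets, of which 28 lay above background. Of those 28, 16 had the sign of the representative probe set, and 0 passed (limma; the lowest adjusted p among the 40 was 0.302). Psmd11, a lid subunit, had 8 probe sets, the brightest at -0.07 and the others from -0.15 to 0.10. The lowest value among all further probe sets, -0.32, came from 1432820_at of Psmd7 (adjusted p = 0.620), against 0.04 on its brightest probe set.

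**Figure D3:**
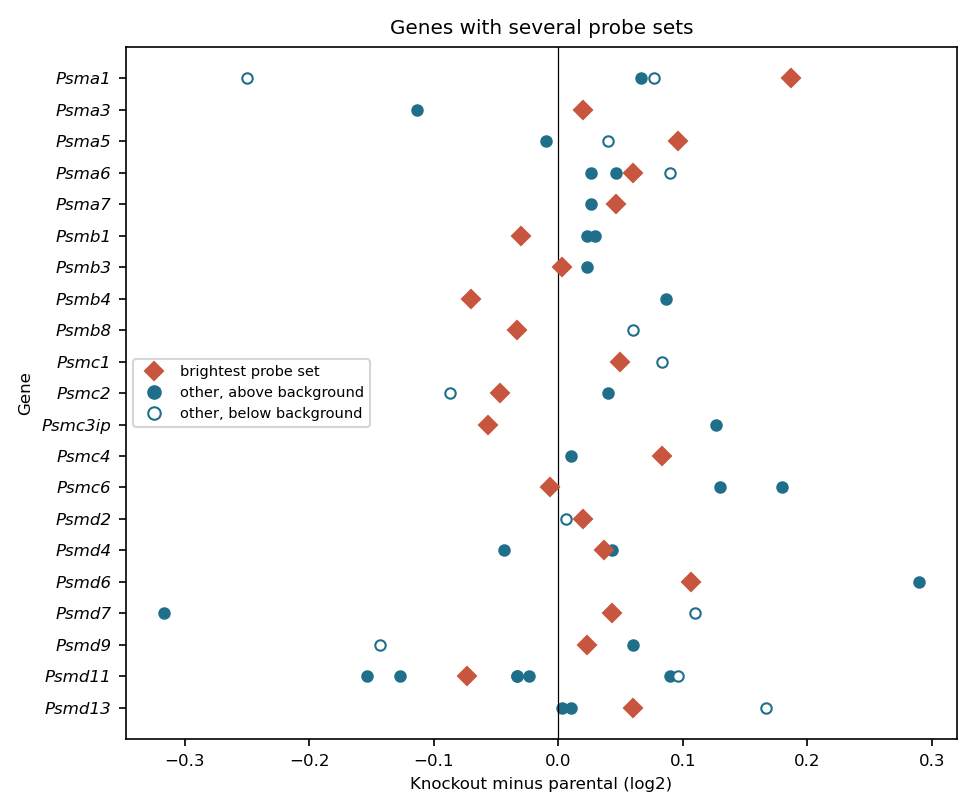
Knockout minus parental change (log2) for each probe set of the 21 genes with several; diamonds are the brightest probe set of a gene, filled circles other probe sets above background and open circles those below it. Probe sets of a gene scatter on both sides of 0 for Psmb4, Psmc2, Psmd7 and Psmd11 among others.

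Of the assembly chaperones named Psmd, which help build the base and are not part of the finished particle, 0 of 3 passed (limma; none at an unadjusted p under 0.05). Psmd5 read 9.63, 9.56 and 9.58 on the parental and 9.41, 9.40 and 9.48 on the knockout arrays. All knockout values were lower (change -0.16, SE 0.07, 95% interval -0.32 to 0.00, unadjusted p = 0.0523, adjusted p = 0.531). Psmd10, also known as the oncoprotein gankyrin, read 8.21, 8.38 and 8.04 against 8.37, 8.08 and 8.34, with overlap (change 0.05, adjusted p = 0.929). Psmd9 changed by 0.02 (adjusted p = 0.962).

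Of the 4 immune and thymus beta subunits, 0 passed the test (limma; 0 also without adjustment). Psmb8 read 8.08, 8.39 and 7.87 on the parental and 8.04, 7.90 and 8.30 on the knockout arrays (change -0.03, SE 0.15, 95% interval -0.37 to 0.31, adjusted p = 0.971). Psmb9 read 5.99, 6.12 and 5.84 against 6.11, 5.81 and 6.03, and its group means were equal (95% interval -0.25 to 0.25). In both genes the groups overlapped fully, and the arrays within a group were further apart than the groups. Psmb10 read 8.42, 8.49 and 8.36 against 8.50, 8.53 and 8.56. Its knockout values all lay above the parental ones, by a small margin (change 0.11, SE 0.07, 95% interval -0.06 to 0.27, adjusted p = 0.723). Psmb11, the thymus form, read 3.04, 2.94 and 3.0 against 3.05, 3.06 and 2.94, below background on every array.

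Within the groups, Psmb8 varied from array to array together with class I antigen genes. Parental replicate 2 and knockout replicate 3 were the highest arrays of their groups for Psmb8, by 0.415 and 0.33 over the mean of the other arrays. The same arrays were highest for Psme1, an activator subunit induced by interferon (by 0.455 and 0.285), for B2m, the light chain of class I molecules (by 0.735 and 0.585), and for Tapbp, which helps load peptides (by 0.56 and 0.435). They were highest by the widest margin for the class I heavy chain genes H2-K1 (1.43 and 1.38) and H2-D1 (1.135 and 1.16), whose probe sets have the x_at ending of sequences shared with other transcripts. Tap1, a peptide transporter gene, and Irf1, a transcription factor of the interferon response, were lowest on these arrays. Thy1, a fibroblast marker, was likewise highest there, at 10.84 among 10.44, 10.84 and 10.18 and at 10.85 among 10.66, 10.16 and 10.85. Other fibroblast markers went the opposite way. Col3a1 (11.89 and 12.08), Col6a1 (9.34 and 9.28) and Col6a2 (9.3 and 9.29) were the lowest of their groups on both arrays. The summed fibroblast level on these arrays was 14.76 and 14.83, the highest of its group in one case and the lowest in the other. These genes, other than the members, were named after their values were seen.

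**Figure D4:**
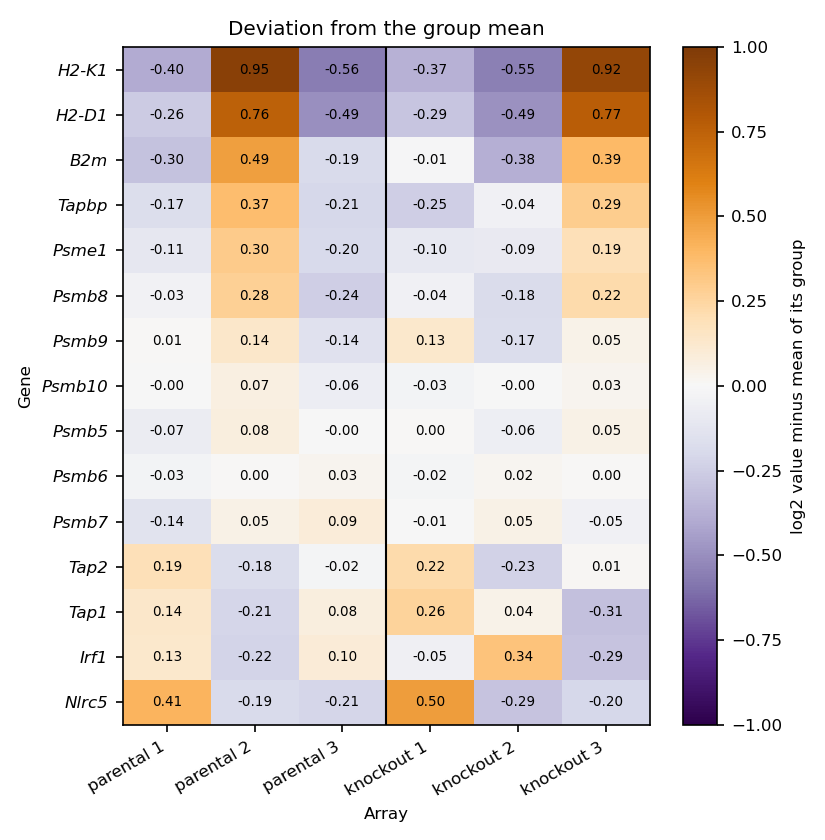
Deviation of each array from the mean of its group (log2) for immune proteasome subunits, their constitutive counterparts Psmb5, Psmb6 and Psmb7, and genes of antigen processing; columns are arrays and rows are genes. Parental 2 and knockout 3 are high from H2-K1 down to Psmb8, near 0 for Psmb6, and low for Tap1 and Irf1.

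Parental replicate 2 and knockout replicate 3 were both highest for 15.9% of all genes, for 5 of 40 members and for 2 of 31 constitutive subunits, Psmb5 and Psmd8. They were both highest for Psmb8 and Psmb10 among 4 immune and thymus forms and for 4 of 9 genes of the antigen processing list. For Psmb10 the margins were small (0.1 and 0.045). Both arrays were picked after the values of such genes were seen, so these counts describe the pattern and do not test it. Which cells of the culture gave these signals was not tested. With both arrays left out, a setting chosen after the data were seen, Psmb8 changed by -0.005, Psmb9 by 0.045 and Psmb10 by 0.125. Psma8 changed by -0.875 with 4 arrays and did not pass (adjusted p = 0.221).

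Of 36 other measured genes of the pathway, in 6 lists, 0 passed (limma; without adjustment 1 had p under 0.05, Erap1, which was higher), and their median change was -0.02. Activators and the inhibitor of the core (4 genes) ran from -0.07 for Psme3 to -0.01, with Psmf1 at -0.05. Core assembly chaperones (5 genes) ran from -0.11 for Psmg4 to 0.06 for Psmg2. Among 5 further components and associated enzymes, Ecpas, a scaffold that tethers core and regulatory particle, changed by 0.18 (adjusted p = 0.544). Uchl5, a deubiquitinase, changed by -0.16 (adjusted p = 0.556). Of 7 shuttle and extraction factors, Rad23b, which carries ubiquitinated proteins, changed by -0.15 (adjusted p = 0.568) and Ubqln2, a shuttle of the ubiquilin family, by 0.14 (adjusted p = 0.597).

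Among 6 genes of subunit transcription, Nfe2l1, the factor that raises subunit transcription when the proteasome is inhibited, changed by -0.05 (adjusted p = 0.884), and Ngly1, an enzyme that activates it, by 0.25 (adjusted p = 0.596). Nfyc, part of the CCAAT-binding factor NF-Y, changed by -0.14 (adjusted p = 0.733). In the antigen processing list, Erap1, a peptidase that trims peptides, changed by 0.25 (unadjusted p = 0.0460, adjusted p = 0.517) and Nlrc5, a class I transactivator, by -0.16 (adjusted p = 0.886).

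Promoter sequences were read from RefSeq (GRCm38.p6) for 33 of the 40 member genes. Those of Psma8, Psmb1, Psmb2, Psmb7, Psmc3, Psmd3 and Psmd7 were not among the sequences used here. Their absence does not show that RefSeq lacks them. In the 250 bases before the first listed start, 3 motifs were searched on both strands: the antioxidant response element TGACNNNGC bound by Nfe2l1, the NF-Y motif CCAAT, and the core of the interferon-stimulated response element, which is GAAA, any 2 bases, and GAAA again. TGACNNNGC was present in 4 of 25 constitutive promoters (16.0%) and in 10.1% of the 27025 promoters used here. That set, too, need not hold every promoter that RefSeq lists. CCAAT was present in 10 of 25 (40%) and in 34.5%, and the interferon-stimulated core in 2 of 25 (8.0%) and in 3.04%. That core was absent from the same stretch of Psmb8, Psmb9, Psmb10 and Psmb11. The 25 promoters also differed in base content, with a median of 15 CG pairs against 6 in the larger set. The sequences below carry the contrasts of the text, with motif matches in capitals: Psma1, the constitutive gene with the lowest p, Psmb5 and its immune counterpart Psmb8, and the stretch that Psmb9 shares with Tap1.
Psma1: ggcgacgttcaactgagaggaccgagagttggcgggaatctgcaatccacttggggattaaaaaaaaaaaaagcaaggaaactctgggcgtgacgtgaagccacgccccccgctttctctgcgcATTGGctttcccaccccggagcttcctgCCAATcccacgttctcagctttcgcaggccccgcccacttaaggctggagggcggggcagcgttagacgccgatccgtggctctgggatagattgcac
Psmb5: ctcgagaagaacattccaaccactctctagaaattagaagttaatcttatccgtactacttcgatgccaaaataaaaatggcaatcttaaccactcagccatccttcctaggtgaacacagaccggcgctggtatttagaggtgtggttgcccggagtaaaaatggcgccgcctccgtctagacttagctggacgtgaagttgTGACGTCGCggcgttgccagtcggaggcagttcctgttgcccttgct
Psmb8: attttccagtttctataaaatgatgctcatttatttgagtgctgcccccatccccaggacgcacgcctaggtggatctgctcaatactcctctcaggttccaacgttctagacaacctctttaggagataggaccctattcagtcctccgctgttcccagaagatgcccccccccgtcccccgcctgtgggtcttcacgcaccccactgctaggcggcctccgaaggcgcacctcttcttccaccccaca
Psmb9: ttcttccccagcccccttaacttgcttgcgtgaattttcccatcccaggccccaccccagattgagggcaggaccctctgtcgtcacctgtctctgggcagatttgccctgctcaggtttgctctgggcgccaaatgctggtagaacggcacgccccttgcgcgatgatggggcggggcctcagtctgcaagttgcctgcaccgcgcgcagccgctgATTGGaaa
The Psma1 sequence (chr7:114276117-114276366, minus strand) holds CCAAT once on each strand. That of Psmb5 (chr14:54617996-54618245, minus strand) holds 1 match to TGACNNNGC, and that of Psmb8 (chr17:34197945-34198194, plus strand) none of the 3 motifs. The Psmb9 sequence (chr17:34187331-34187555, minus strand) is the 225 bases between the starts of Psmb9 and Tap1, which are transcribed in opposite directions, and holds 1 CCAAT match on the other strand. On parental replicate 2 Psmb9 was at its highest of the group (6.12) and Tap1 at its lowest (7.08), while on knockout replicate 1 both were at their highest (6.11 and 7.48). A match describes the letters only, and no motif match was set against the changes.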

How the data were processed

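The samples were 6 Affymetrix arrays, 3 of the Dppa4 hemizygous parental line and 3 of the Dppa4 knockout line. Arrays were grouped by the clone name in the sample titles, which also gave the replicate numbers. The titles themselves do not state the genotype. The authors deposited log2 expression values per probe set, made with RMA per the submitters' processing notes; that they are log2 was read from their range (2.12 to 13.98). For the program and its settings, the sources used here give nothing. After 64 control probe sets were left out, 45037 were tested two-sided between the groups with limma 3.58.1 (R 4.3.3; lmFit, eBayes), without covariates, and p-values were adjusted over all of them by Benjamini-Hochberg at a threshold of 0.05. The platform annotation named 1 gene for 34945 probe sets, several for 932 and none for 9160. Gene names, promoters and chromosomes came from RefSeq tables of GRCm38.p6. A fold is a bound ("at least") where the lower group was not above background on any array; its values were then raised to background before averaging. The number of arrays limits the precision.

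The members and lists were chosen with earlier results of these data known. Array values are given for Psma8, Psmb8 to Psmb11 and Psmc3ip, for members that passed, and for the 2 largest changes of each group of subunits; pathway lists are represented by their 2 largest changes, while other named genes, among them Psma7, Nfe2l1, Mnd1 and those of meiosis other than Syce1, were chosen after their values were seen. The procedure was tested on simulated data with known changes and independent noise on each array. Movement that arrays share across groups was not simulated, so the simulation does not show how such movement affects the calls. Alternatives were the replicate number as a block, a second quantile normalization, subtraction of array medians, eBayes with a trend in intensity and robust estimation, a filter at background, no x_at or s_at probe sets, the mean of a gene's probe sets, and leaving out arrays.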

Additional observations from a re-analysis of the deposited data

How the results depend on the processing

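Psma8 stayed lower under all 14 alternatives and passed in 7. It kept its call with quantile normalization again, array medians subtracted, an intensity trend and robust estimation, a filter at background, no x_at or s_at probe sets and the mean of a gene's probe sets. The filter, the removal of x_at and s_at probe sets and the mean left its single probe set as it was (-0.96). These settings could alter only its p-values, so they are no test of its change. Without 1 array its change ran from -1.07 to -0.873 and it passed in 1 of 6 settings; with parental replicate 2 and knockout replicate 3 both left out it was -0.875 (adjusted p = 0.221, limma). With a replicate block it was -0.96 but did not pass (adjusted p = 0.0636). Arrays of the same number shared only that number: their deviations correlated at 0.162, -0.415 and -0.342. Across numbers, higher values were found: 0.463 between the second parental and the third knockout array, and 0.429 between the third parental and the second knockout array, a likeness that no block fitted here follows. The count of member genes called, and that of member probe sets, was 0 with the replicate block, 0 without both arrays, and 0 to 1 without 1 array. The median change of the constitutive subunits ran from -0.02 to 0.0283 without 1 array and was -0.02 without both. The 181 probe sets called over the whole table became 88 with the replicate block, 312 with an intensity trend and robust prior, 36 without both arrays and 70 to 112 without 1 array. Pathway genes called stayed at 0 in all settings run (limma). Of the other 39 members, 0 passed in any setting run. No group had enough arrays for a test of outlying arrays.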

Other observations

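Another pattern between arrays crossed the groups. Nlrc5 read 6.51, 5.91 and 5.89 on the parental and 6.44, 5.65 and 5.74 on the knockout arrays, highest on replicate 1 of each group. Tap1 (7.43, 7.08 and 7.37; 7.48, 7.26 and 6.91) and Tap2 (6.12, 5.75 and 5.91; 6.18, 5.73 and 5.97) were also highest on those arrays. Psmb9 was high on knockout replicate 1 (6.11) but not the highest of the parental group on replicate 1 (5.99). These are values of genes named after they were seen, with no test.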
